A study of Mus musculus with 6 samples.

Results

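Collagens are the chains from which the fibres and sheets of the extracellular matrix are built. The collagen genes described here were all genes whose symbol is Col, a number, the letter a and a number, and whose level was above 0 in any mouse. This gave 44 of the 47719 gene identifiers in the tables, of which 26087 were above 0 in any mouse. They fell into 11 fibrillar collagens, 8 collagens of basement membranes and 25 other collagens. RNA of whole prostate glands was sequenced from 6 mice of strain B6.129S4-Trp53tm3.1Tyj/J, each about 3 months old and each its own sample. Mice 39 and 41 were wildtype (Trp53+/+), mice 37 and 40 carried 1 R270H allele of Trp53 (heterozygous) and mice 47 and 49 carried 2 (homozygous). R270H is a missense change in the DNA-binding domain of the tumor suppressor p53, and the strain carries it in the germline, so that stromal cells carry it as well as epithelial cells. All 6 mice were irradiated over the whole body with 5 Gy, and prostates were taken 6 h later, so every genotype is described after irradiation and no unirradiated prostate was compared.

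Collagen chains are made in the endoplasmic reticulum, where proline and lysine residues are hydroxylated and chains wind around each other into a helix before secretion. Fibrillar collagens are trimmed outside the cell, pack into fibrils and are cross-linked, and in the prostate they form the stroma that surrounds the glands. Collagens of basement membranes form the thin sheets under epithelium and around vessels, nerves and muscle cells. The remaining collagens coat fibrils, form beaded filaments, anchor the epithelium or span the cell membrane. Fibroblasts are the main source of fibrillar collagen RNA, while epithelial, endothelial and muscle cells make much of the type IV collagens.

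Type IV collagen genes lie in pairs that point away from each other, which makes the DNA between their starts a shared feature of the members. In build GRCm38, Col4a1 on the minus strand and Col4a2 on the plus strand of chromosome 8 overlapped at their annotated starts by 22 bases. Col4a4 and Col4a3 on chromosome 1 were separated by 71 bases, and Col4a6 and Col4a5 on chromosome X by 1308 bases. Below are the bases just before the starts of the last pair, whose levels parted in the homozygous mice, and of Col23a1 and Col6a3, which had the lowest p-values among the collagens. They come from RefSeq on GRCm38.p6 and are written 5′ to 3′ on the strand of each gene, in lower case, with capitals for a GC box (GGGCGG, or CCGCCC where it lies on the opposite strand) or a CCAAT box (CCAAT). The last 34 bases before the RefSeq start of Col4a5, which hold its GC box, lie in an annotated first exon and are not printed.
Col4a6, chrX:141474077-141474326, minus strand: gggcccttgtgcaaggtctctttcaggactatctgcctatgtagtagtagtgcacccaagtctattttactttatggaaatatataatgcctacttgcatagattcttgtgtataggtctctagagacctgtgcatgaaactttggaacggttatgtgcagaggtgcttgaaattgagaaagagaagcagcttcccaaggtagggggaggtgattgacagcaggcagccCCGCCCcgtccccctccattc
Col4a5, chrX:141475169-141475384, plus strand: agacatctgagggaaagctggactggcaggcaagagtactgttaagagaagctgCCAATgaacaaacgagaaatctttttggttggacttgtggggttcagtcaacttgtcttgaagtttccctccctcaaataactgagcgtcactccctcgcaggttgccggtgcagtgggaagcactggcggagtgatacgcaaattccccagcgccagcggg
Col23a1, chr11:51289670-51289919, plus strand: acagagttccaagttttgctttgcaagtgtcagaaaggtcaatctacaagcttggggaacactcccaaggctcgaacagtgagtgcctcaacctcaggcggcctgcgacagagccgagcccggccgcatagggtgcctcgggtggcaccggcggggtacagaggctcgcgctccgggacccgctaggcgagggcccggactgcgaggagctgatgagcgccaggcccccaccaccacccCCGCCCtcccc
Col6a3, chr1:90843972-90844221, minus strand: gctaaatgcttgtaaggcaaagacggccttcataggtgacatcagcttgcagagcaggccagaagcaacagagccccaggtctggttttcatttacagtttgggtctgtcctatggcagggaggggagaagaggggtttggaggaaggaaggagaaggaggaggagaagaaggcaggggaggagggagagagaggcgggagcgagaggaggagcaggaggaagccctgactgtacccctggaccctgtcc

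Each search covered the 250 bases before a RefSeq start and both strands, and 35 of the 44 collagen genes had such a window. A GC box was found in the windows of 21 of these 35 genes and in 32.7% of all 32851 windows. A CCAAT box was found in 13 of the 35 genes and in 33.8% of all windows, and a TATA box (TATAAA) in 5 of the 35 genes and in 12.4% of all windows. The windows of Col4a6 and Col4a5, which share a divergent start region, differed in CpG dinucleotides, with 3 in the 250 bases searched for Col4a6 and 10 in those for Col4a5. The window of Col23a1 held 18 CpG and that of Col6a3 held 3, against a median of 6 over all windows. A p53 half-site, the decamer bound by a pair of p53 subunits, was matched in the windows of Col20a1, Col6a6 and Col9a2 and in 7.13% of all windows, and in none of the sequences printed here. These matches describe the letters of the windows and not binding.

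The deposited values were FPKM, which are fragments scaled to transcript length and to sequencing depth. The sums over all genes ranged from 518671 to 636407 FPKM, and 13452 to 13827 genes per mouse reached 1 FPKM. Total read counts were not used here, but the steps between low values gave relative depths of 0.78 to 1.06 of that of mouse 39. Trp53 itself was at 17.3 to 21.4 FPKM, which does not check the genotype because R270H leaves the transcript in place. The glands were not alike in their secretory genes. Pbsn, which encodes the prostate secretory protein probasin, was at 257 FPKM in homozygous mouse 47 and at 7329 to 11512 FPKM in the other mice. Markers of the seminal vesicle, a neighbouring gland, summed to 3488 FPKM in wildtype mouse 39 and to 35187 to 59466 FPKM in the others. In these sums Svs2, Svs4 and Svs5 were listed at 0 in mouse 47, and Svs2 also in mouse 49, and a listed 0 of such abundant genes may be a failed estimate. Over the 4 markers never listed at 0, the sums were 170 FPKM in mouse 39, 59466 FPKM in mouse 47 and 4508 to 5240 FPKM in the others. The main results that rest on mouse 47 or mouse 39 are therefore also given without them. In whole glands, fewer cells of a type and less RNA per cell cannot be told apart.

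Levels below are in FPKM, in the order mice 39 and 41 (wildtype), 37 and 40 (heterozygous), 47 and 49 (homozygous). Fold changes are differences of log2(FPKM + 0.1) with their standard error, tested with limma in the 13818 genes with a mean of at least 1 FPKM and adjusted over all of them by the Benjamini-Hochberg method. All p-values measure the spread between mice with n = 2 per genotype, and in limma this spread also draws on that of other genes. Between 2 genotypes, an exact two-sided permutation test of a single gene cannot go below 0.333. Both mutant genotypes were compared with the same wildtype mice. Of the collagen genes, 27 were tested: 8 fibrillar, 6 basement membrane and 13 other. The remaining 17 were below the filter, and of these Col9a1, Col10a1 and Col19a1 were listed at 0 in at least 1 mouse.

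**Figure D1:**
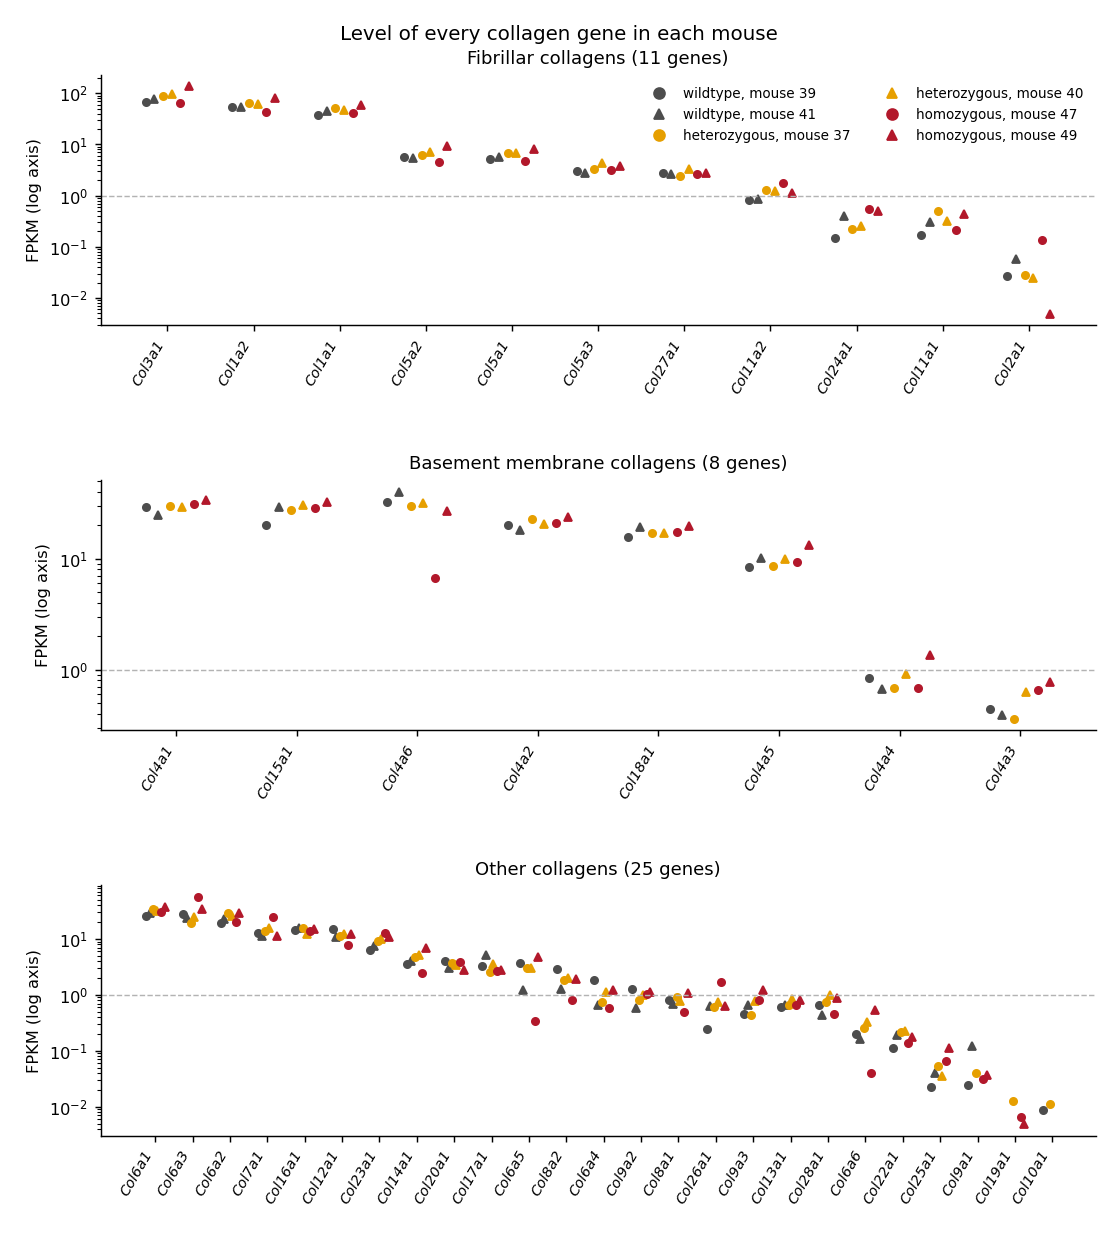
Level of each of the 44 collagen genes in each mouse in FPKM on a log axis, in 3 panels by class, with genes ordered by mean level. Circles and triangles are single mice in the colour of their genotype, values of 0 are not drawn, and the dashed line is the filter at 1 FPKM. Col3a1, Col1a2 and Col1a1 stand well above the other fibrillar collagens in every mouse.

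Few genes made up most of the collagen RNA. Col3a1, Col1a2 and Col1a1 gave 38.3% of the summed mean FPKM of the 44 genes, the highest 5 gave 50.5% and the highest 10 gave 76.2%. Collagens as a whole summed to 449 and 480 FPKM in wildtype, to 517 and 523 FPKM with 1 mutant allele, and to 465 and 635 FPKM with 2. In these unscaled sums both heterozygous mice were above both wildtype mice, and the homozygous mice lay on either side of the heterozygous ones. As a share of the FPKM sum over all genes, heterozygous and wildtype mice overlapped. Heterozygous mouse 37, whose sum over all genes was 633551 FPKM, then lay between wildtype mouse 41 and wildtype mouse 39, whose sum was 544712 FPKM. Mouse 40 stayed above both wildtype mice, and the homozygous mice still lay on either side of the heterozygous ones.

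No collagen gene passed the test for a change with genotype after adjustment. In the limma F-test over the 3 genotypes, 0 of 27 had an adjusted p under 0.05, where 0.101% of all tested genes did. The same held in each contrast. It was 0 of 27 for heterozygous against wildtype (0.00% of all genes), 0 of 27 for homozygous against wildtype (0.384%) and 0 of 27 for homozygous against heterozygous (0.0145%). At an unadjusted p under 0.05, 2 of 27 passed the F-test, Col6a3 and Col23a1, against 11.5% of all genes, so their share was below the background. The F-test on each gene alone also gave 0 at an adjusted p under 0.05.

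**Figure D2:**
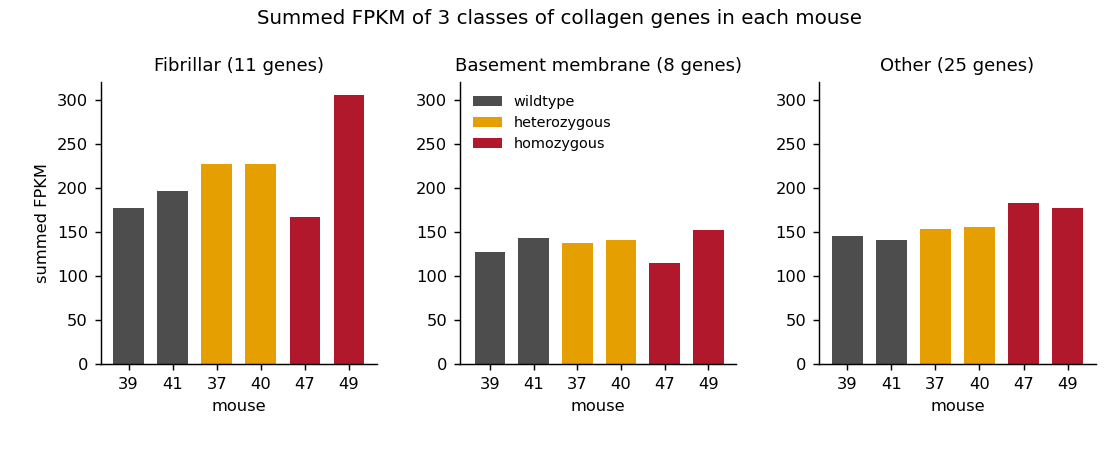
Summed FPKM of the 11 fibrillar, 8 basement membrane and 25 other collagens in each of the 6 mice, 1 bar a mouse, coloured by genotype. The fibrillar sums are 226 and 227 with 1 mutant allele and 167 and 305 in homozygous mice 47 and 49, while the basement membrane sums overlap between genotypes.

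The fibrillar collagens summed to 176 and 196, 226 and 227, and 167 and 305 FPKM. Both heterozygous mice were above the wildtype mice, and homozygous mouse 47 was the lowest of all 6 and mouse 49 the highest. Col3a1, the single chain of type III collagen and the most abundant collagen transcript, was at 66.4 and 78.7, 88.3 and 95.2, and 65.8 and 137 FPKM. Its heterozygous values did not overlap the wildtype ones, and its log2 fold change of 0.34 ± 0.34 (SE) was no larger than its error (limma adjusted p = 0.925). In homozygous mice it was 0.39 ± 0.34 (SE, limma adjusted p = 0.574), with mouse 47 below both wildtype mice.

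Col1a1 and Col1a2 encode the chains of type I collagen, the main component of stromal fibrils. Col1a1 was at 38.4 and 44.7, 51.8 and 47.8, and 40.4 and 59.95 FPKM. Col1a2 was at 53.6 and 54.3, 65.5 and 60.5, and 43.2 and 81.3 FPKM. In both genes the heterozygous mice were above the wildtype mice and the homozygous mice lay on either side of the heterozygous range. The log2 fold changes of Col1a1 were 0.26 ± 0.21 in heterozygous and 0.25 ± 0.21 in homozygous mice (SE, limma adjusted p = 0.890 and 0.564). Those of Col1a2 were 0.22 ± 0.29 and 0.14 ± 0.29 (SE, limma adjusted p = 0.942 and 0.829). The ratio of Col1a1 to Col1a2 FPKM was between 0.717 and 0.935 in the 6 mice. It was lowest in mouse 39 and highest in mouse 47, which was above mouse 39 in Col1a1 and below it in Col1a2.

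Type V collagen is a minor component that sits inside type I fibrils and helps to start them. Col5a1 was at 5.27 and 5.77, 6.84 and 6.75, and 4.73 and 8.21 FPKM, and Col5a2 at 5.71 and 5.37, 6.14 and 6.99, and 4.61 and 9.46 FPKM. Both repeated the order of Col3a1 and Col1a2, with the heterozygous mice above the wildtype mice, mouse 47 lowest and mouse 49 highest, while in Col1a1 mouse 39 was lowest. Their log2 fold changes in heterozygous mice were 0.30 ± 0.26 and 0.24 ± 0.33 (SE, limma adjusted p = 0.913 and 0.946). Col5a3, a further type V chain, was at 2.97 and 2.75, 3.25 and 4.39, and 3.14 and 3.81 FPKM, so that every mutant mouse was above both wildtype mice. Col11a2, a type XI chain best known from cartilage, was low at 0.821 and 0.855, 1.28 and 1.22, and 1.76 and 1.15 FPKM, and here too the mutant mice did not overlap the wildtype mice. Its log2 fold changes were 0.53 ± 0.34 and 0.70 ± 0.34 (SE, limma adjusted p = 0.865 and 0.344), and the latter was 0.41 without mouse 47. Col27a1 was at 2.46 to 3.26 FPKM with overlapping genotypes. The untested fibrillar genes Col24a1, Col11a1 and the cartilage gene Col2a1 stayed at or under 0.538 FPKM in every mouse.

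In heterozygous mice, 14 of 27 tested collagens were higher than in wildtype mice without overlap, a share of 51.9%, where 19.2% of all tested genes were. Of these 14, 7 were fibrillar (all tested fibrillar genes except Col27a1), 2 were basement membrane collagens (Col4a1 and Col4a2) and 5 were others (Col6a1, Col6a2, Col7a1, Col14a1 and Col23a1). The same 14 genes were counted after quantile normalization, where 17.7% of all genes were, and after scaling to the median gene, where 19.9% were. Only Col4a6 was lower without overlap, where 19.9% of all genes were, and it was not after quantile normalization. The median log2 fold change of the 8 tested fibrillar genes was 0.28, that of all 11 was 0.26, and that of all tested genes was -0.01. All 8 were above 0, where 47.2% of all genes were. The collagens share their source cells, so that these counts do not stand for that many independent measurements.

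The summed fibroblast markers moved with the fibrillar collagens, while single markers differed. All 9 tested markers of a list of 10, among them Pdgfra, Dpt and Gsn, had a log2 fold change above 0 in heterozygous mice. Their median was 0.51, and 47.2% of all genes were above 0. The summed level of the list was 588 and 652, 906 and 853, and 424 and 920 FPKM, and no marker was listed at 0. Mouse 47 was the lowest in this sum and mouse 49 the highest, as in the fibrillar collagens. However, Gsn, which gave most of the sum, was highest in mouse 37, as were Mfap5 and Pi16, and Thy1 was highest in mouse 47. In homozygous against wildtype mice 5 of the 9 were above 0, with a median of 0.12, where 45.0% of all genes were above 0. None of the 9 had an adjusted or unadjusted p under 0.05 in limma, and the part that fibroblast RNA has in the fibrillar values was not tested.

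**Figure D3:**
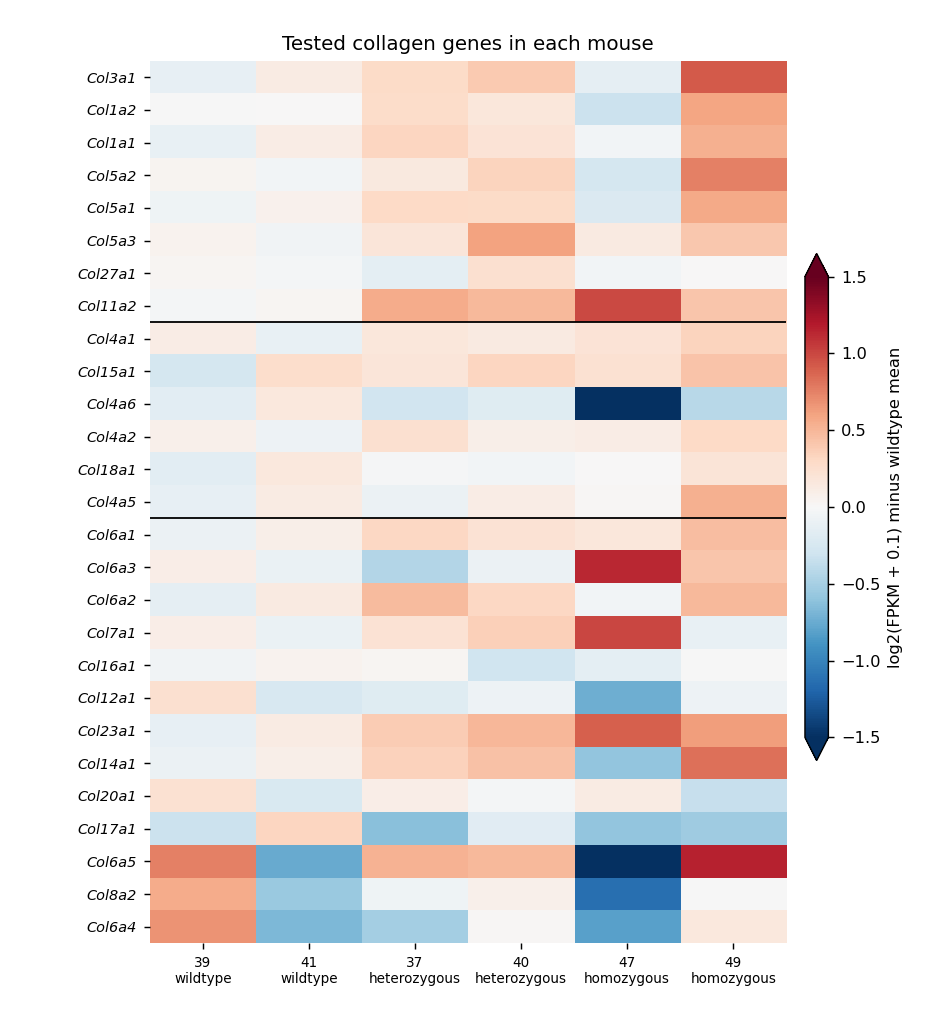
Each tested collagen gene in each mouse as log2(FPKM + 0.1) minus the mean of the 2 wildtype mice, red for higher and blue for lower, with values past the ends of the scale in its end colour. Lines part fibrillar, basement membrane and other collagens. The fibrillar rows of mouse 49 are red apart from Col27a1, and most of those of mouse 47 are blue or pale. Col4a6 and Col6a5 have the blue end colour in mouse 47.

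The homozygous mice were farther apart in their collagens than the other pairs. The median absolute log2 gap over the 27 genes was 0.57 in the homozygous pair, 0.22 in the wildtype pair and 0.13 in the heterozygous pair, beside 0.22, 0.21 and 0.19 over all tested genes. Mouse 49 was higher than mouse 47 in 22 of 27 tested collagens, where it was higher in 49.9% of all tested genes. This held for 7 of 8 fibrillar, 6 of 6 basement membrane and 9 of 13 other genes. The median log2 gap from mouse 47 to mouse 49 over the fibrillar genes was 0.68, and the corresponding gaps were 0.04 from mouse 39 to mouse 41 and 0.05 from mouse 37 to mouse 40. Collagens at least 2-fold apart numbered 7 of 27 in the homozygous pair (6.52% of all genes) and 3 of 27 in the wildtype pair (6.30%). The 7 were Col3a1, Col5a2, Col4a6, Col7a1, Col14a1, Col6a5 and Col8a2. Of these, only Col7a1 was higher in mouse 47.

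Each homozygous mouse alone gave a different account of the fibrillar collagens. With mouse 47 left out, their median log2 fold change against wildtype was 0.55, and 10 of 27 collagens had an unadjusted p under 0.05 in limma, all higher. These were Col1a1, Col1a2, Col3a1, Col5a1, Col5a2, Col4a5, Col6a1, Col6a2, Col14a1 and Col23a1, a share to be read against 11.7% of all genes. The lowest adjusted p among them was 0.301. The log2 fold changes of Col3a1, Col1a2 and Col1a1 were 0.92, 0.59 and 0.53 without mouse 47, and -0.14, -0.32 and -0.04 without mouse 49. With mouse 49 left out, the median was -0.09, and 8 of 27 had an unadjusted p under 0.05 in limma, 4 higher and 4 lower, against 19.8% of all genes. In both fits the lone homozygous mouse was taken to vary like the others. With both mice, the fibrillar median was 0.25 in homozygous against wildtype and -0.04 in homozygous against heterozygous mice, beside -0.04 and -0.03 for all tested genes. Between mice of the same genotype the fibrillar median varied with a pooled SD of 0.28 (log2), which is as large as these medians.

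**Figure D4:**
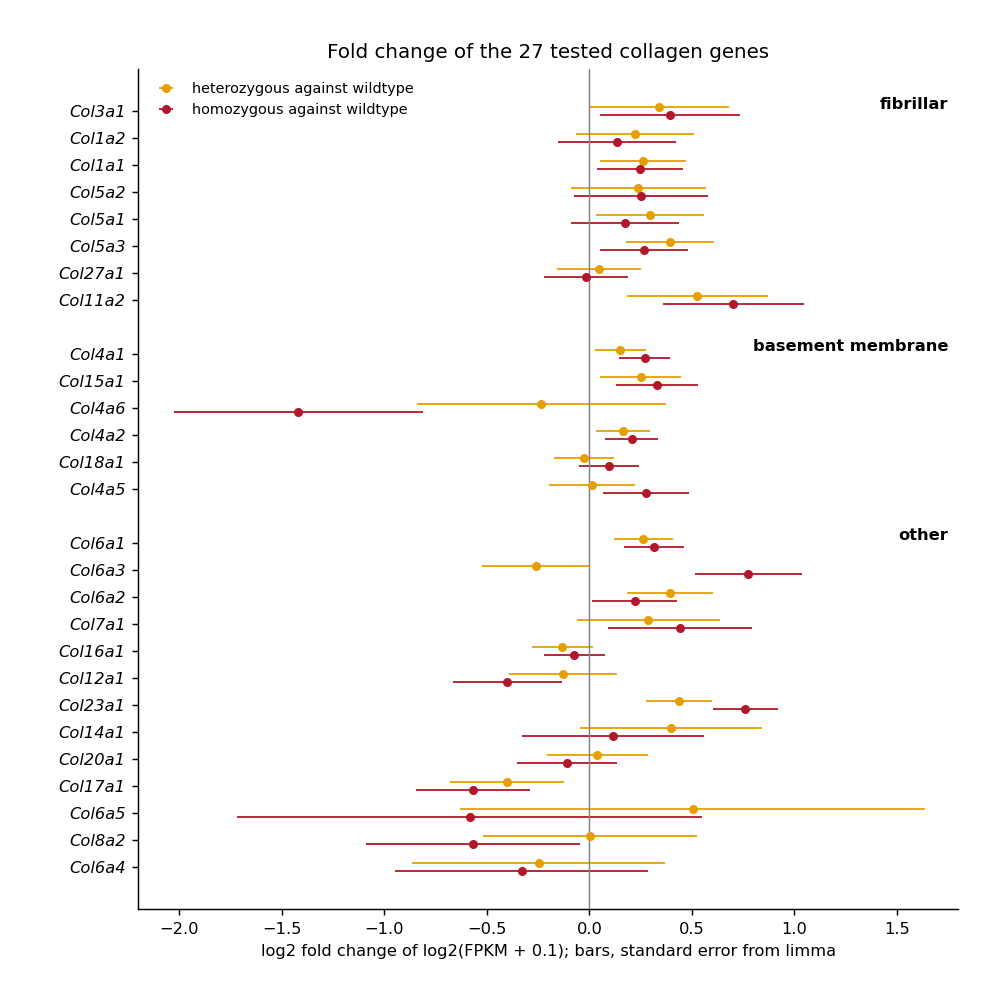
Log2 fold changes of the 27 tested collagen genes, measured as differences of log2(FPKM + 0.1), in heterozygous (orange) and homozygous (red) against wildtype mice, with bars for the standard error from limma. All 8 fibrillar genes lie to the right of 0 in heterozygous mice, and Col4a6 at -1.42 and Col6a3 at 0.77 lie farthest from 0 in homozygous mice.

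The basement membrane collagens varied less between mice as a class. Their sums were 127 and 143, 137 and 140, and 115 and 152 FPKM, with overlapping genotypes. Col4a1 and Col4a2 form the type IV network found in nearly all basement membranes. Col4a1 was at 29.0 and 24.8, 30.1 and 29.5, and 30.9 and 33.8 FPKM, so that its level ascended with the number of mutant alleles without overlap. Only Col4a1 and Col23a1 of 27 did so, where 3.85% of all genes did, and the same pair was counted under quantile normalization and median scaling. Its log2 fold changes were 0.15 ± 0.13 in heterozygous and 0.27 ± 0.13 in homozygous mice (SE, limma adjusted p = 0.900 and 0.328). Without mouse 39 these were 0.26 and 0.38, and without mouse 41 they were 0.04 and 0.16. Col4a2 was at 20.2 and 18.2, 22.6 and 20.5, and 20.7 and 23.7 FPKM, and every mutant mouse was above both wildtype mice. The ratio of Col4a1 to Col4a2 stayed between 1.33 and 1.49 in the 6 mice.

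Col4a6 and Col4a5, the second divergent pair by level, did not keep such a ratio. Both chains take part in a type IV network of smooth muscle and some epithelia. Col4a6 was at 32.5 and 40.2, 29.7 and 31.9, and 6.67 and 27.1 FPKM. Both homozygous mice were below the other mice, mouse 47 by far. Col4a5 was at 8.37 and 10.03, 8.64 and 9.88, and 9.29 and 13.3 FPKM, with mouse 47 among the other genotypes and mouse 49 highest. The ratio of Col4a6 to Col4a5 FPKM was 3.89 and 4.01, 3.43 and 3.23, and 0.718 and 2.03.

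The log2 fold change of Col4a6 in homozygous mice was -1.42 ± 0.61 against wildtype and -1.19 ± 0.61 against heterozygous mice (SE, limma adjusted p = 0.294 and 0.707). Its levels descended with the number of mutant alleles without overlap, as in 4.98% of all genes, but not after quantile normalization. It was the only collagen for which this was so. Mouse 47 decided its size. Without mouse 47 the log2 fold change against wildtype was -0.42 (limma adjusted p = 0.458), and without mouse 49 it was -2.42 (limma adjusted p = 0.0306). Over the fits that left out each mouse in turn the adjusted p ran from 0.0306 to 0.549. Against heterozygous mice, the log2 fold change without mouse 49 was -2.19 (limma adjusted p = 0.0483, range 0.0483 to 1 over the same fits). Prostate luminal markers moved with Col4a6, with 8 of 9 below 0 in homozygous against wildtype mice, Sbp included. In that contrast 45.0% of all genes were above 0. Sbp was listed at 0 in 4 of the mice and at 19587 and 24775 FPKM in mice 41 and 37, and these zeros may be failed estimates. Without it the sums were 21787 and 23648.5, 17737 and 15369, and 1435 and 13834 FPKM. The 4 prostate basal markers did not move one way. In homozygous against wildtype mice Krt15 was lower (limma unadjusted p = 0.0330) and Trp63 higher (limma unadjusted p = 0.00538), neither with an adjusted p under 0.05, and 2 of the 4 were above 0. Their sum, most of it Krt15, was 124 and 126 FPKM in the homozygous mice and 130 to 186 FPKM in the others. The part of either cell type in the Col4a6 values was not tested.

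Col4a3 and Col4a4, the chains of the kidney glomerulus and lung alveolus, formed the lowest pair and were below the filter. Col4a3 was at 0.438 and 0.386, 0.358 and 0.629, and 0.651 and 0.768 FPKM. Col4a4 was at 0.847 and 0.663, 0.677 and 0.909, and 0.687 and 1.34 FPKM. Mouse 49 had the highest level of both.

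Col15a1 and Col18a1 encode collagens with long interruptions of the helix that sit at the outer face of basement membranes, and endostatin is released from the latter. Col15a1 was at 20.2 and 29.2, 27.6 and 30.2, and 28.5 and 32.6 FPKM, where wildtype mouse 39 alone was low. Col18a1 was at 15.6 and 19.3, 17.2 and 16.9, and 17.4 and 19.9 FPKM, with overlapping genotypes. The median log2 fold change of the 6 tested basement membrane genes was 0.08 in heterozygous and 0.24 in homozygous mice, or 0.11 and 0.27 over all 8. Without mouse 39 the medians of the 6 were -0.07 and 0.11.

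**Figure D5:**
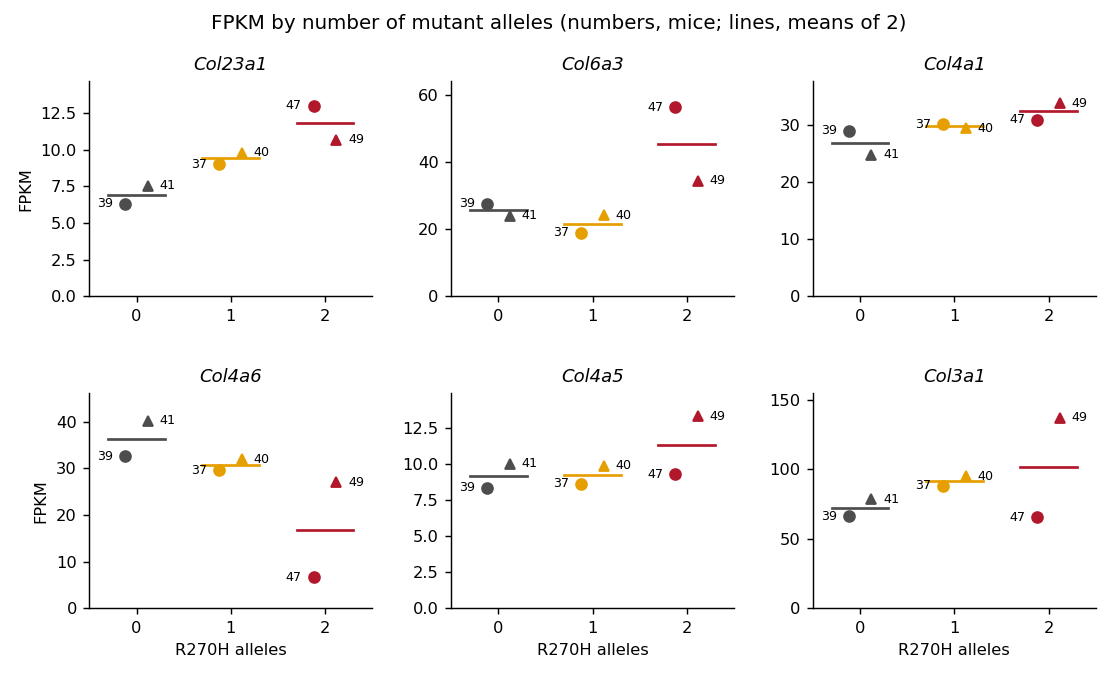
FPKM of 6 collagen genes against the number of R270H alleles on linear axes that start at 0, with 1 numbered point a mouse and a line at the mean of each genotype (n = 2). Col23a1 and Col4a1 ascend without overlap, Col6a3 is high in both homozygous mice, Col4a6 is low in them while Col4a5 is not, and Col3a1 splits mice 47 and 49.

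Among the other collagens, the type VI genes were the most abundant. Col6a1, Col6a2 and Col6a3 encode the classical chains of the beaded filaments that lie between fibrils and basement membranes. Col6a1 was at 25.7 and 29.3, 33.9 and 32.0, and 30.9 and 37.7 FPKM, and every mutant mouse was above both wildtype mice. Col6a2 was at 18.9 and 23.0, 29.1 and 25.8, and 20.3 and 29.2 FPKM, with mouse 47 inside the wildtype range. These neighbours on chromosome 10, which are 85161 bases apart on the same strand, kept a ratio of 1.16 to 1.52. Col6a3 followed another order, at 27.7 and 24.0, 19.0 and 24.3, and 56.6 and 34.5 FPKM. Both homozygous mice were above all others and mouse 47 was the highest. Its ratio to Col6a1 was 1.08 and 0.822, 0.562 and 0.760, and 1.83 and 0.915.

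The log2 fold change of Col6a3 was 0.77 ± 0.26 in homozygous against wildtype (SE, limma unadjusted p = 0.0263, adjusted p = 0.228). It was 1.03 ± 0.26 in homozygous against heterozygous mice (SE, limma unadjusted p = 0.00801, adjusted p = 0.707), and -0.26 ± 0.26 in heterozygous against wildtype mice (SE, limma adjusted p = 0.925). Without mouse 47 these first 2 values were 0.42 and 0.68 (limma unadjusted p = 0.104 and 0.0254). In homozygous against heterozygous mice Col6a3 was the only collagen with an unadjusted p under 0.05, where 6.39% of all genes had one. The summed smooth muscle markers were also highest in mouse 47, although Tagln and Des were highest in mouse 37. The sums were 1782 and 2117, 2455 and 2009, and 2946 and 2031 FPKM. All 10 markers had a log2 fold change above 0 in homozygous against wildtype mice, where 45.0% of all genes did, and none was listed at 0. In heterozygous against wildtype mice all 10 were above 0 too (47.2% of all genes), with a median of 0.25, while Col6a3 was at -0.26. The sum of mouse 49 lay below those of mice 41 and 37, while its Col6a3 level was above both. The part of smooth muscle RNA in the Col6a3 values was not tested.

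Col6a4, Col6a5 and Col6a6 encode chains that can stand in for the Col6a3 chain, and they lie next to each other on chromosome 9. They went the other way in mouse 47. Col6a5 was at 3.66 and 1.21, 3.08 and 3.02, and 0.343 and 4.84 FPKM, a spread between the homozygous mice that covered all others. Col6a4 ran from 0.582 FPKM in mouse 47 to 1.82 FPKM in mouse 39, and Col6a6 from 0.0402 FPKM in mouse 47 to 0.543 FPKM in mouse 49.

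Col23a1 had the lowest p-value of all collagens in the F-test. It encodes a transmembrane collagen that can be shed from the cell surface. Its level was 6.34 and 7.56, 9.02 and 9.81, and 13.0 and 10.7 FPKM, so that the genotypes did not overlap and followed the number of mutant alleles. The log2 fold change was 0.44 ± 0.16 in heterozygous mice (SE, limma unadjusted p = 0.0352, adjusted p = 0.671) and 0.76 ± 0.16 in homozygous mice (SE, limma unadjusted p = 0.00345, adjusted p = 0.136). The F-test gave an adjusted p of 0.304 in limma. Leaving out each mouse in turn kept the unadjusted p in homozygous mice between 0.00566 and 0.0241 in limma. It was the only collagen with an unadjusted p under 0.05 in heterozygous mice, where 6.87% of all genes had one, and it no longer had one without mouse 39, 37 or 40. In homozygous against wildtype mice, Col23a1 and Col6a3 were 2 of 27, both higher, where 18.0% of all genes had such a p and 8.65% were higher with it. The summed skeletal muscle markers were ordered like Col23a1 by genotype. Single markers such as Ckm, Myh1 and Ryr1 overlapped between heterozygous and homozygous mice. The sums were 1728 and 2521, 4844 and 5083, and 5915 and 5194 FPKM. All 12 markers were above 0 in both mutant genotypes against wildtype, where 47.2% (heterozygous) and 45.0% (homozygous) of all genes were. None of the 12 was listed at 0. In each of these contrasts 11 of 12 were higher at an unadjusted p under 0.05 in limma, where 6.87% and 18.0% of all genes had one. Their median log2 fold change in homozygous against heterozygous mice was 0.14. The part of muscle RNA in the Col23a1 values was not tested.

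Col17a1, the other transmembrane collagen above the filter, belongs to the hemidesmosomes of basal epithelial cells. It was at 3.27 and 5.13, 2.61 and 3.63, and 2.68 and 2.79 FPKM, and the homozygous mice were below both wildtype mice. Its log2 fold change in them was -0.57 ± 0.28 (SE, limma adjusted p = 0.346), and it was -0.88 without mouse 39 and -0.25 without mouse 41. Col7a1, which forms the anchoring fibrils under epithelium, was at 13.0 and 11.2, 14.1 and 15.5, and 24.2 and 11.2 FPKM, with mouse 47 alone high. Col16a1, a collagen found at fibril surfaces and near epithelium, was at 14.5 and 15.7, 15.4 and 12.3, and 13.7 and 15.02 FPKM, with overlapping genotypes.

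Col12a1 and Col14a1 coat type I fibrils. Col12a1 was at 15.1 and 10.7, 11.2 and 12.1, and 7.65 and 12.1 FPKM. Col14a1 was at 3.55 and 4.02, 4.84 and 5.18, and 2.47 and 6.76 FPKM, and so kept the order of the fibrillar collagens. Col20a1 and Col8a2 had mean levels of 3.46 and 1.79 FPKM, and in both the genotypes overlapped. The 12 other collagens below the filter had means from 0.00330 FPKM for Col10a1, a gene of hypertrophic cartilage, to 0.978 FPKM for Col9a2, a chain of the cartilage collagen type IX. The median log2 fold change of the 13 tested other collagens was 0.04 in heterozygous and -0.07 in homozygous mice.

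Over all 27, the homozygous mice were higher than the wildtype mice without overlap in 7 collagens, where 21.3% of all genes were. These were Col4a1, Col4a2, Col5a3, Col11a2, Col6a1, Col6a3 and Col23a1. They were lower in 2, Col4a6 and Col17a1, where 28.7% of all genes were. Against heterozygous mice they were higher in 4, Col4a1, Col18a1, Col6a3 and Col23a1 (18.0% of all genes), and lower in 1, Col4a6 (24.1%). The mean log2 fold change was above 0 in 18 of 27 collagens for homozygous against wildtype mice (45.0% of all genes) and in 13 of 27 for homozygous against heterozygous mice (45.7%).

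The genes that make, trim, hold, bind and break down collagen were then read beside the collagens, from lists given by function. Of 16 tested genes for collagen biosynthesis and folding, 0 had an adjusted p under 0.05 in limma in any contrast. At an unadjusted p under 0.05 in limma, 2 were higher in heterozygous mice (Serpinh1 and Fkbp10, chaperones of procollagen), where 6.87% of all genes had such a p. In homozygous against wildtype mice 3 were lower (P4ha2, P4hb and Ppib) and 0 higher. In either direction 18.0% of all genes had such a p, and 8.65% were higher with it. The share of 3 of 16 is near the background of both directions together, but all 3 were lower. In homozygous against heterozygous mice 3 were lower (P4ha2, P3h3 and Ppib), where 6.39% of all genes had such a p in either direction. The most abundant genes of the list were P4hb, the partner subunit of prolyl hydroxylase, at 686 and 696, 605 and 550, and 505 and 497 FPKM, and Ppib, a proline isomerase, at 515 and 590, 531 and 435, and 314 and 368 FPKM. Both homozygous mice were below the others in these genes, which all secretory cells use. The log2 fold changes in homozygous mice were -0.46 for P4hb and -0.70 for Ppib (limma adjusted p = 0.263 and 0.193). The collagen-dedicated chaperone Serpinh1 was at 48.8 and 49.6, 67.3 and 62.6, and 58.4 and 55.6 FPKM, above wildtype in every mutant mouse.

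Of 8 tested genes for trimming and cross-linking, 0 had an unadjusted p under 0.05 in limma in any contrast. Pcolce, an enhancer of procollagen trimming, was at 30.0 and 24.7, 31.3 and 27.5, and 15.4 and 27.4 FPKM, and the protease Bmp1 was at 8.09 to 10.6 FPKM. The cross-linking enzyme Lox was at 6.50 and 4.52, 5.93 and 6.41, and 3.78 and 8.67 FPKM, with mouse 47 lowest and mouse 49 highest. All 7 tested fibril-associated proteoglycans were above 0 in heterozygous mice, where 47.2% of all genes were. Their median log2 fold change was 0.31. In limma 0 had an adjusted p under 0.05, and Aspn was higher in heterozygous mice at an unadjusted p under 0.05, where 6.87% of all genes had one. Decorin (Dcn), which binds type I fibrils, was at 260 and 207, 266 and 305, and 137 and 375 FPKM. Biglycan (Bgn) was at 100 and 105, 124 and 115, and 105 and 124 FPKM. The split between mice 47 and 49 in Dcn was that of the fibrillar collagens.

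Of 15 tested partners of collagen in basement membranes, 0 had an adjusted p under 0.05 in limma, and 2 had an unadjusted p under 0.05 (Lamb2, higher in heterozygous mice, and Lama5, lower in homozygous mice), no more than the 6.87% and 18.0% of all genes. Sparc, a collagen-binding protein, was at 155 to 217 FPKM and Lamb2, a laminin chain, at 45.5 to 58.9 FPKM. The lowest adjusted p in the list was that of Lama5, an epithelial laminin chain named here after its values were seen. It was at 73.4 and 61.97, 53.4 and 41.7, and 32.0 and 23.1 FPKM, with no overlap between genotypes. With 2 mutant alleles its log2 fold change was -1.31 (limma adjusted p = 0.0929). Col4a6 and Lama5 were both lower in homozygous mice, but mouse 49 was the lowest in Lama5 and mouse 47 in Col4a6.

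Of 8 tested genes for collagen breakdown, 1 had an unadjusted p under 0.05 in limma, the membrane protease Mmp14, higher in homozygous mice, where 18.0% of all genes had one. The inhibitors Timp2 and Timp3 were the most abundant of them, at 65.6 to 113 FPKM and 35.6 to 58.9 FPKM, both lowest in mouse 47 and highest in mouse 49. A further inhibitor of the list, Timp1, went the other way, at 14.9 FPKM in mouse 47 and 4.72 to 5.72 FPKM in the other mice. Of 5 tested collagen receptors, Itga1 was higher and Ddr1 lower in homozygous mice at an unadjusted p under 0.05 in limma, where 18.0% of all genes had one. Itgb1, the shared integrin subunit, was at 67.2 to 78.2 FPKM with overlapping genotypes, and Ddr1, an epithelial kinase that binds collagen, was at 53.9 and 46.2, 44.9 and 41.5, and 33.6 and 37.7 FPKM. Of 6 tested targets of TGF-beta, a growth factor that induces fibrillar collagen genes, 1 had an unadjusted p under 0.05 in limma (Ltbp2, higher in heterozygous mice, where 6.87% of all genes had one). Postn was at 16.6 to 22.0 FPKM and Ccn2, listed as Ctgf, at 18.6 and 15.2, 26.5 and 19.7, and 9.06 and 23.5 FPKM. No gene of these lists had an adjusted p under 0.05 in limma.

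Markers of other cells that make collagen were read in the same way. Endothelial markers summed to 54.9 and 75.1, 87.9 and 95.3, and 91.6 and 91.4 FPKM. All 9 were above 0 in both mutant genotypes against wildtype, where 47.2% (heterozygous) and 45.0% (homozygous) of all genes were. Pericyte markers summed to 33.3 and 35.4, 40.4 and 45.5, and 38.3 and 52.1 FPKM, Schwann cell markers to 82.7 and 77.4, 107 and 113, and 76.1 and 99.6 FPKM, and adipocyte markers to 739 and 527, 640 and 856, and 1072 and 1067 FPKM. The endothelial and pericyte sums were above wildtype in every mutant mouse, like the levels of Col4a1 and Col4a2. The pericyte marker Notch3 went the other way, and the other 5 of 6 were above 0 in both mutant genotypes, against the same shares of all genes. At an unadjusted p under 0.05 in limma, 3 of 9 endothelial markers were higher in heterozygous and 5 in homozygous mice. Of the pericyte markers 1 was higher in heterozygous mice, and 2 were higher and Notch3 lower in homozygous mice. Such a p was found in 6.87% and 18.0% of all genes. Macrophage markers summed to 168 and 163, 258 and 217, and 101 and 260 FPKM, with the order of the fibrillar collagens, and lymphocyte markers stayed at 2.25 to 3.41 FPKM. None of these markers that passed the filter had an adjusted p under 0.05 in limma, and the 6 lymphocyte markers were below it. Their part in the collagen values was not tested.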

How the data were processed

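Stranded mRNA libraries of 6 prostates were sequenced. The deposited values were FPKM per gene and mouse, which the authors made on GRCm38 (mm10), with HISAT, Cufflinks and Cuffnorm named in the submitters' processing notes. Tool versions and annotation were not given in the sources used here. The collagen genes, the lists and the tests were chosen with earlier results of these data known. Where a symbol had several identifiers (124 symbols), the one with the highest mean was used, and positions came from GENCODE M21, which held 47219 of 47719 identifiers and all 44 collagens. Genes with a mean of at least 1 FPKM were tested as log2(FPKM + 0.1) with limma 3.58.1 in R 4.3.3, in 1 fit of all 6 mice with an intensity trend. On simulated data with 200 of 13818 genes changed between homozygous and wildtype mice, 93 genes were called, of which 92 were changed. Recovery was 32% for log2 changes of 1 and 60% for log2 changes of 2, and with no gene changed 0 were called. The simulated errors were normal and independent between genes, the spreads were shuffled over genes, and no mouse was made to deviate. These rates therefore need not hold for the real mice. Mice were given by name for the highest 5 fibrillar, 4 basement membrane and 4 other collagens, the divergent type IV pairs, and each collagen with an unadjusted p under 0.05. Of each partner list the highest 2 genes and each gene with an adjusted p under 0.05 were named, and all further genes were named after their values were seen. Alternatives were other pseudocounts, filters, scalings and prior variances, an F-test on each gene alone, type IV genes alone, and each mouse left out. The non-overlap counts under other scalings were added after seeing the data. Depth is known only relative to mouse 39. One marker gene is not reported here.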

Additional observations from a re-analysis of the deposited data

How the results depend on the processing

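With 2 mice a genotype and FPKM in place of read counts, the precision rests on the spread between mice. The collagen counts at an adjusted p under 0.05 stayed at 0 in every setting except without homozygous mouse 49, where Col4a6 made 1 in homozygous against wildtype and 1 in homozygous against heterozygous mice. At an unadjusted p under 0.05 in limma, quantile normalization gave 5 collagens in homozygous against wildtype mice in place of 2, and 1 in place of 2 passed an F-test fitted gene by gene. A filter at a mean of 5 FPKM, which leaves fewer genes, moved the median log2 fold change of the other collagens to 0.26 in heterozygous and 0.32 in homozygous mice.

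Leaving out each mouse in turn gave unadjusted counts of 1 to 8 in the F-test (1 without mouse 39 or 37, 6 without mouse 47, 8 without mouse 49). They were 0 to 2 in heterozygous against wildtype (0 without mouse 39, 37 or 40, 2 without mouse 41), 2 to 10 in homozygous against wildtype and 0 to 9 in homozygous against heterozygous mice (0 without mouse 37, 5 without mouse 47, 9 without mouse 49). Adjusted counts ran from 0 to 1. The fibrillar medians ran from 0.23 to 0.35 in heterozygous and -0.086 to 0.55 in homozygous against wildtype, and -0.39 to 0.27 in homozygous against heterozygous mice. The basement membrane medians ran from -0.066 to 0.11, 0.066 to 0.32 and 0.00 to 0.18. The medians of the other collagens ran from -0.084 to 0.26, -0.14 to 0.16 and -0.19 to 0.13. Single collagens changed sign in 58 of 486 such values and in 9 of 540 under the other settings. The cause was not tested. No paired analysis was possible because each mouse number belongs to 1 mouse and no number is shared between genotypes.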
